A study of Mus musculus with 63 samples.

Results

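miR-221 and miR-222 are 2 microRNAs (miRNAs) processed from neighbouring hairpins on the X chromosome, and each hairpin gives a 3p and a 5p mature arm. The 4 arms, mmu-miR-221-3p, mmu-miR-221-5p, mmu-miR-222-3p and mmu-miR-222-5p, were taken by name and are 4 of the 2110 mature miRNA loci counted by small RNA sequencing in this series. The series covers 4 cell populations sorted from the kidneys of 16 male C57BL/6 mice aged 8 to 12 weeks: endothelial cells (ECs; CD45–CD31+), macrophages (Macs; CD45+ and high for the macrophage antigen that the labels write as F480), proximal tubule cells (PT cells; CD45–CD31–LTL+, where LTL is a lectin that binds the proximal tubule brush border) and PDGFR-β+ mesenchymal cells (CD45–CD31–PDGFR-β+). Mice had a sham operation, unilateral ureteric obstruction for 2 days (UUO-2) or 7 days (UUO-7), or 7 days of obstruction followed by 2 weeks of reversal (R-UUO), and no group carried an altered allele or a drug. The sequenced mice were those nearest to their group's mean expression of the tubular injury gene Havcr1. Each of the 16 groups had 4 libraries, except PDGFR-β+ cells at UUO-7, which had 3, so that 63 libraries entered the analysis.

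miRNAs load into Argonaute and pair with messenger RNAs mainly through their seed, bases 2 to 8 from the 5′ end. miR-221-3p and miR-222-3p carry the same seed and are known to repress Kit, the receptor for stem cell factor, and Cdkn1b, an inhibitor of the cell cycle. They are best known in blood vessels, where they favour proliferation of smooth muscle cells and restrain proliferation and migration of endothelial cells. The 5p arms are the less abundant strands of the same hairpins and have a different seed.

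The mature sequences are shown because the seed is what makes the 3p arms a family. They are RefSeq sequences on GRCm38.p6, written 5′ to 3′ with the seed in capitals.
miR-221-3p: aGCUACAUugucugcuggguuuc
miR-222-3p: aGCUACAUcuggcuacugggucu
miR-221-5p: aCCUGGCAuacaauguagauuucugu

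All 4 loci lie on the minus strand of chromosome X. miR-221-3p spans chrX:19146307-19146329, miR-221-5p chrX:19146344-19146369, miR-222-3p chrX:19146901-19146923 and miR-222-5p chrX:19146941-19146961. The first 8 bases of the 3p arms are identical, and 11 of their 23 positions match without gaps, so the read itself tells them apart beyond the seed. Among the 1738 mature sequences in the reference table, the seed GCUACAU was found in 1 other miRNA, miR-1928, which had 0 counts in all 63 libraries, and the miR-221-5p seed CCUGGCA was found in no other. The precursors show how the arms are arranged, with the 3p arm in capitals.
Mir221: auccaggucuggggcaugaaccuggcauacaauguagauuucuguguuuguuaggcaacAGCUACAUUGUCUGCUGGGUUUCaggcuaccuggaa
Mir222: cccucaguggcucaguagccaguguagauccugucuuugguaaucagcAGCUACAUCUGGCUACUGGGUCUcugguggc
The hairpins are 504 bases apart. No other annotated gene overlaps them, and the nearest, the non-coding gene Gm14636, lies 10010 bases away.

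Library totals ran from 616565 to 10819385 counts, and all 4 arms were counted in every library. Over the 63 libraries miR-222-3p had 331463 counts, miR-221-3p 84161, miR-221-5p 7713 and miR-222-5p 3421. miR-222-3p was therefore 77.7% of the 4 arms' counts, miR-221-3p 19.7%, miR-221-5p 1.81% and miR-222-5p 0.802%. By mean level miR-222-3p ranked 56 and miR-221-3p 102 among the 671 loci that passed the filter on low counts over all libraries. The 5p arms were thinly counted: miR-222-5p had 8 to 231 counts per library and miR-221-5p 13 to 546, so their folds carry wider errors. The marker miRNAs of each population were highest in that population's own libraries. The EC miRNAs miR-126a-3p and miR-126a-5p, for example, summed to 93099 to 173192 CPM in ECs and 322 to 3524 CPM in the other populations. CPM are scaled read counts. Every sum of marker miRNAs was scaled by the trimmed mean of M-values (TMM) over all 63 libraries.

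In Macs the whole pair rose early. miR-222-3p was at 1504, 1934, 1564 and 1758 CPM in the sham libraries and at 6507, 5886, 4133 and 5781 CPM in those of UUO-2. It was at 2887, 3636, 2714 and 2802 CPM after 7 days and at 2129, 1999, 2647 and 2591 CPM after reversal (CPM scaled by the trimmed mean of M-values, TMM, within the cell type). Every UUO-2 library lay above every library of the other conditions, and every R-UUO library lay above every sham library. miR-221-3p was at 482, 452, 375 and 477 CPM in sham and 1247, 1108, 990 and 1103 CPM in UUO-2 libraries, then 891, 1043, 898 and 930 CPM after 7 days and 747, 603, 595 and 527 CPM after reversal, on the same scale. The sham libraries were again lowest, but the UUO-2 and UUO-7 libraries overlapped.

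A difference was called when the false discovery rate (FDR) of edgeR's quasi-likelihood test over all loci was under 0.05 and the fold was above 1.5. At UUO-2 all 4 arms were called higher than in sham Macs, where 27.6% of the 457 tested loci were called in either direction and 18.4% were called higher. None of the 4 overlapped with sham, nor did 39.6% of all loci. miR-222-3p rose by 1.72 on the log2 scale (SE 0.15, 3.30-fold, FDR 3.72e-07), miR-221-3p by 1.32 (SE 0.13, FDR 1.75e-06), miR-221-5p by 1.26 (SE 0.22, FDR 0.000208) and miR-222-5p by 1.17 (SE 0.20, FDR 0.000208), against a median of 0.15 over all loci. By p-value miR-222-3p ranked 3 and miR-221-3p ranked 4 of the 457 loci. At UUO-7 all 4 were again called higher than sham, with 43.1% of loci called in either direction, 26.3% called higher and 47.3% without overlap. The changes were 1.07 for miR-221-3p (SE 0.13, FDR 6.56e-06), 0.83 for miR-222-3p (SE 0.15, FDR 0.000185), 0.82 for miR-221-5p (SE 0.22, FDR 0.00448) and 0.61 for miR-222-5p (SE 0.20, FDR 0.0183). The call of miR-222-5p was lost in 12 of 15 alternatives. That of miR-221-5p was lost without sham library 1 (log2 0.57) or UUO-7 library 2 (0.50), and that of miR-222-3p fell just under the fold without UUO-7 library 3 (0.57).

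Between UUO-2 and UUO-7 miR-222-3p fell by 0.89 in Macs (SE 0.15, FDR 0.000216), where 30.6% of loci were called and 14.4% were called lower. miR-221-3p stood at -0.24 (SE 0.13, FDR 0.166) in that comparison and was not called. Between UUO-7 and R-UUO miR-221-3p fell by 0.61 (SE 0.13, FDR 0.00307; 19.9% of loci called, 7.22% lower), while miR-222-3p stood at -0.36 (SE 0.15, FDR 0.0855). The miR-221-3p value was close to the fold threshold and dropped under it without R-UUO library 2 (-0.58), 4 (-0.56) or 5 (-0.49), or without UUO-7 library 3 (-0.54) or 5 (-0.58). In R-UUO against sham, 31.9% of loci were called, 21.4% were called higher and 32.8% did not overlap. miR-221-5p was called, 1.34 higher (SE 0.22, FDR 0.000128). miR-221-3p (0.47, SE 0.13, FDR 0.00915) and miR-222-3p (0.47, SE 0.15, FDR 0.0188) passed the FDR but stayed under the fold. The miRNAs of PT cells (miR-192-5p, miR-194-5p, miR-215-5p) summed to 3511 to 5217 CPM in sham Macs and 1061 to 3241 CPM in the other conditions. Of their 3 loci, 0 were called at UUO-2 against sham, 3 were lower at UUO-7 and 2 in R-UUO. The leukocyte miRNAs (miR-142a-3p, miR-142a-5p, miR-223-3p) summed to 34894 to 41968 CPM in sham and 14705 to 29714 CPM in the others. Their loci did not all follow that sum, which was scaled over all libraries while the tests were scaled within the cell type. At UUO-2 against sham 1 of 3 was called higher and 0 lower (median log2 0.13). At UUO-7 2 were called lower, as were 2 in R-UUO. The mesenchymal miRNAs (miR-143-3p, miR-145a-5p, miR-199a-5p, miR-214-3p) were 1922 to 4877 CPM in sham Macs and 5912 to 8586 CPM in R-UUO, where 4 of their 4 tested loci were called higher. The red cell miRNAs (miR-451a, miR-144-3p) were at 0 to 1.12 CPM in sham Macs and 3.70 to 10.5 CPM in those of UUO-2, and their 1 tested locus was called higher at UUO-2 (log2 3.68) and lower from UUO-2 to UUO-7 (-1.81). The part of these markers in the changes of the pair was not tested. In sorted bulk RNA a change in the mix of cells and a change in RNA per cell cannot be told apart.

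**Figure D1:**
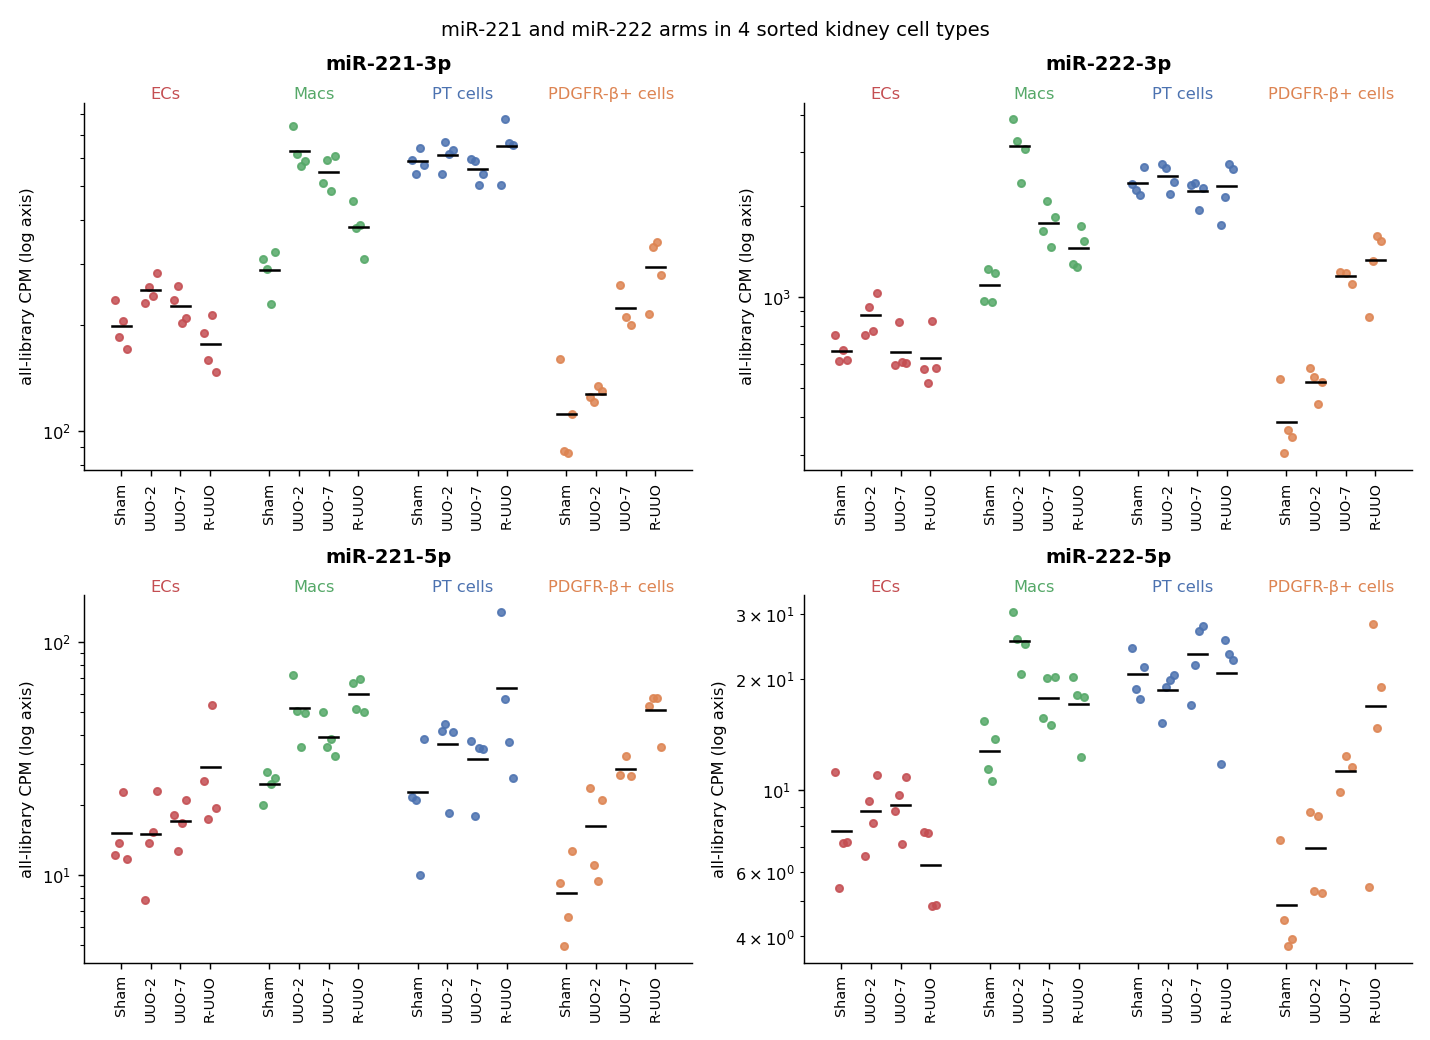
Level of each arm in every library, as CPM scaled over all 63 libraries (log axis), by cell type and condition; points are libraries and bars are group means. In Macs miR-222-3p peaked at UUO-2, with a mean of 3150 CPM against 1089 CPM in sham, and in PDGFR-β+ cells it went from 386 CPM in sham to 1169 CPM at UUO-7 and 1322 CPM in R-UUO.

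In PDGFR-β+ cells no arm was called at UUO-2, and all 4 were called higher than sham at UUO-7 and after reversal. Only the 3p arms were also called higher at UUO-7 than at UUO-2. Whether the UUO-2 change differed from that in Macs was not tested. miR-222-3p was at 389, 265, 275 and 274 CPM in sham and 501, 433, 361 and 406 CPM in UUO-2 libraries, then 870, 920 and 884 CPM after 7 days and 695, 948, 1109 and 1241 CPM after reversal (TMM within the cell type). The UUO-7 and R-UUO libraries all lay above the sham and UUO-2 libraries, while the highest sham library, sham 1, lay among the UUO-2 libraries and apart from the other sham libraries. miR-221-3p was at 117, 76.4, 65.2 and 89.3 CPM in sham and 108, 96.5, 110 and 101 CPM in UUO-2 libraries, then 188, 162 and 160 CPM after 7 days and 175, 241, 242 and 225 CPM after reversal. Sham and UUO-2 overlapped, and UUO-7 and R-UUO lay above both. miR-221-5p was at 6.73, 4.34, 4.99 and 10.2 CPM in sham and 20.5, 8.85, 7.73 and 16.3 CPM in UUO-2 libraries, then 19.5, 24.9 and 21.2 CPM after 7 days and 43.2, 41.5, 40.0 and 28.9 CPM after reversal. Every R-UUO library lay above every UUO-7 library, as for 17.8% of loci in one direction or the other. miR-222-5p ranged from 2.85 to 5.33 CPM in sham and from 4.42 to 20.4 CPM in R-UUO, where library 1, with 22 counts, overlapped sham.

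At UUO-2, 0 of the 4 arms were called in PDGFR-β+ cells (6.29% of the 477 tested loci called). miR-221-5p stood at 1.01 on the log2 scale (SE 0.34, FDR 0.091) and miR-222-3p at 0.50 (SE 0.18, FDR 0.115); their unadjusted p was under 0.05, for 2 of the 4, and DESeq2 also called 0. Without UUO-2 library 3 miR-221-5p was called (1.18, FDR 0.0377). At UUO-7 all 4 were called higher than sham, in a comparison where 48.2% of loci were called, 34% were called higher and 58.1% did not overlap. The changes were 1.57 for miR-222-3p (SE 0.19, 2.96-fold, FDR 7.53e-06), 0.96 for miR-221-3p (SE 0.19, FDR 0.000809), 1.74 for miR-221-5p (SE 0.36, FDR 0.00104) and 1.15 for miR-222-5p (SE 0.46, FDR 0.0459). The median over all loci was itself 0.50, and it moved to 0.27 with DESeq2-type size factors (relative log expression, RLE) and to 1.02 with library size alone. miR-221-3p stood at 0.72 and 1.48 and miR-222-3p at 1.32 and 2.08 under those scalings, so both stayed above the median of all loci under each. The miR-222-5p call was lost in 11 of 14 alternatives, among them the removal of sham library 2 (FDR 0.0769), 3 (0.098) or 4 (0.0927), or of UUO-7 library 2 (0.0576), 4 (0.124) or 5 (0.107).

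From UUO-2 to UUO-7 miR-222-3p rose by 1.07 (SE 0.19, FDR 0.000552) and miR-221-3p by 0.71 (SE 0.19, FDR 0.00914), where 33.8% of loci were called, 23.5% higher, and the median was 0.38. The miR-221-3p call was lost with DESeq2 (0.57), with RLE factors (0.57) and with the replicate block (0.69, FDR 0.0517). From UUO-7 to R-UUO 0 of 4 were called (3.98% of loci). No fall after reversal was called: miR-222-3p stood at 0.16 (95% interval -0.25 to 0.57) and miR-221-3p at 0.38 (-0.04 to 0.79), while miR-221-5p stood at 0.81 (SE 0.35, FDR 0.255). Its unadjusted p was the 1 of 4 under 0.05, and DESeq2 called 0 as well. In R-UUO all 4 were called higher than sham, where 41.7% of loci were called, 27.9% higher, 38.8% did not overlap and the median was 0.40. miR-221-5p rose most, by 2.55 (SE 0.35, 5.87-fold, FDR 2.29e-05), followed by miR-222-3p at 1.73 (SE 0.18, 3.32-fold, FDR 1.62e-06), miR-222-5p at 1.70 (SE 0.43, FDR 0.00493) and miR-221-3p at 1.34 (SE 0.18, FDR 2.29e-05). These 4 calls held in all 15 alternatives run for each.

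Markers moved in the same libraries. The summed leukocyte miRNAs in PDGFR-β+ cells were 53.0 to 171 CPM in sham, 273 to 698 CPM at UUO-7 and 121 to 205 CPM in R-UUO, against at least 14705 CPM in Macs. The summed mesenchymal miRNAs went from 322345 to 394905 CPM in sham to 129506 to 156586 CPM at UUO-7 and 78659 to 139041 CPM in R-UUO, with 2 of their 5 loci (miR-143-3p and miR-145a-5p) called lower and the other 3 higher in both comparisons. EC miRNAs were 2041 to 2588 CPM in sham and 465 to 706 CPM in R-UUO, and PT miRNAs 2085 to 3853 CPM and 836 to 1656 CPM. The part of these shifts in the pair's change was not tested.

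**Figure D2:**
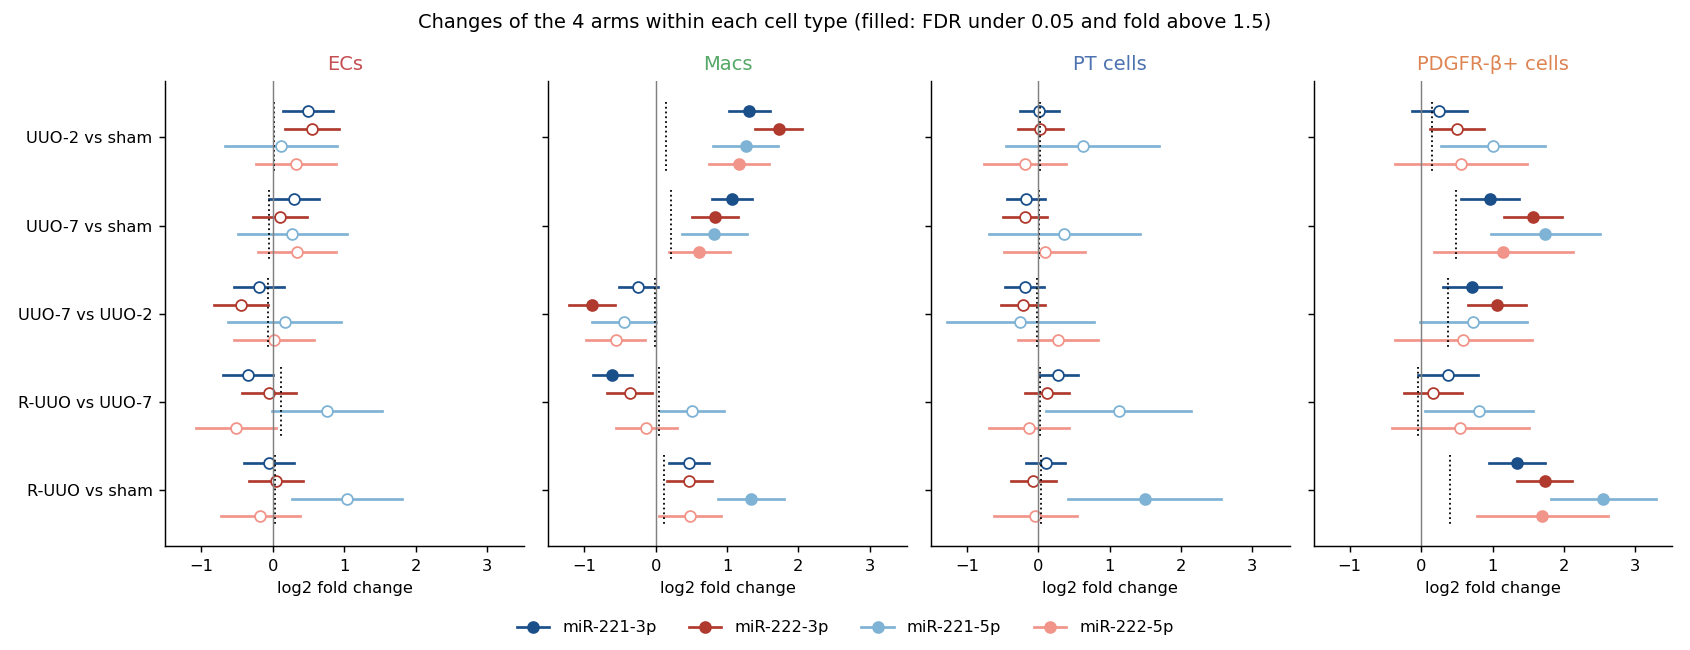
Log2 fold change of each arm (x axis) in 5 comparisons within each cell type, with 95% intervals; filled circles passed FDR under 0.05 and a fold above 1.5, and dotted lines mark the median over all tested loci. Of 20 tests per cell type 11 were called in Macs, 10 in PDGFR-β+ cells, 1 in PT cells and 0 in ECs (edgeR).

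In PT cells the 3p arms were high and, on TMM scaling within the cell type, varied little with injury. miR-222-3p was at 2822, 2606, 2537 and 3216 CPM in sham and 3191, 3057, 2504 and 2661 CPM in UUO-2 libraries, then 2498, 2687, 2172 and 2471 CPM after 7 days and 2101, 2364, 3252 and 2949 CPM after reversal (TMM within the cell type), and all conditions overlapped. miR-221-3p lay between 563 and 854 CPM in all 16 libraries. Neither was called in any of the 5 comparisons, in which 19.1% (UUO-2 against sham), 43% (UUO-7 against sham), 4.24% (UUO-7 against UUO-2), 1.52% (R-UUO against UUO-7) and 38.8% (R-UUO against sham) of the 330 loci were called. At UUO-7 against sham miR-222-3p stood at -0.19 (95% interval -0.50 to 0.12) and miR-221-3p at -0.18 (-0.45 to 0.09). With library size alone they stood lower, at -0.52 and -0.51, where the median over all loci was -0.36. In R-UUO against sham they stood at -0.44 and -0.28 on that scale, with a median of -0.41. The summed PT miRNAs went in the same libraries from 99864 to 130314 CPM in sham to 16093 to 65003 CPM in R-UUO.

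miR-221-5p was the arm that passed in PT cells, in R-UUO against sham (log2 1.49, SE 0.50, FDR 0.0271; 25.8% of loci called higher). The R-UUO libraries were at 163, 62.5, 44.0 and 29.0 CPM and the sham libraries at 25.9, 24.3, 11.7 and 45.9 CPM, on 217, 91, 27 and 30 counts and 24, 19, 13 and 41 counts. The groups overlapped. Without R-UUO library 1 the value was 0.80 (FDR 0.152), and without sham library 1, 2 or 3 it was 1.43, 1.39 and 1.18 with FDRs of 0.0545, 0.0617 and 0.0792. It was 0.73 with library size alone (FDR 0.14). In the same comparison of PT cells 2 of 3 tested mesenchymal loci were called higher (summed level 1523 to 3382 CPM in sham and 3732 to 25720 CPM in R-UUO), as were 2 of 3 loci of other epithelium (miR-200b-3p, miR-200c-3p, miR-141-3p; 3129 to 3625 CPM and 4787 to 6424 CPM), 1 of 2 EC loci (565 to 819 CPM and 583 to 1890 CPM) and 1 of 2 leukocyte loci (73.2 to 106 CPM and 102 to 281 CPM). Their part was not tested.

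In ECs, a cell type in which this family is well known, 0 of 20 tests passed with edgeR; 5 of the 20 had an unadjusted p under 0.05, and DESeq2 called 1. miR-222-3p was at 451, 397, 415 and 384 CPM in sham and 557, 673, 492 and 683 CPM in UUO-2 libraries, then 415, 578, 394 and 380 CPM after 7 days and 411, 311, 583 and 392 CPM after reversal. The UUO-2 libraries did not overlap with sham for miR-222-3p or for miR-221-3p (107 to 142 CPM in sham and 154 to 187 CPM at UUO-2), in a comparison in which 12.4% of loci did not overlap and 1.71% were called. The changes of 0.55 (SE 0.18, FDR 0.156) and 0.50 (SE 0.17, FDR 0.156) did not pass. At UUO-7 the values were 0.10 for miR-222-3p (95% interval -0.28 to 0.48) and 0.30 for miR-221-3p (-0.05 to 0.65), with 11.5% of loci called, and in R-UUO 0.04 (-0.34 to 0.42) and -0.05 (-0.40 to 0.30), with 16.8% called. In UUO-7 against UUO-2 1.92% and in R-UUO against UUO-7 1.07% of the 469 loci were called. miR-221-5p came nearest in R-UUO against sham, at 1.03 (SE 0.36, FDR 0.0511), with 18.1, 10.5, 37.7 and 13.1 CPM in R-UUO and 7.35, 8.92, 14.1 and 7.33 CPM in sham. DESeq2 called it (1.03, FDR 0.0253), as did the test without R-UUO library 2 (1.37), R-UUO library 5 (1.32) or sham library 3 (1.31). Leukocyte miRNAs were 20.1 to 193 CPM over the EC libraries, and 3 of their 3 loci were called higher in ECs at UUO-7; their part was not tested.

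The changes were then compared between cell types, in a single model of all 63 libraries, with FDR alone as the rule. For UUO-7 against sham 10 of 24 differences were called, over 6 pairs of cell types in which 16.2% (ECs and PT cells) to 27.9% of the 671 loci were called. The change of miR-222-3p in PDGFR-β+ cells (1.60 in this model) exceeded that in ECs (-0.01) by 1.61 (SE 0.25, FDR 2.12e-06; 27.9% called), that in PT cells (-0.09) by 1.68 (SE 0.25, FDR 2.99e-07; 27.6%) and that in Macs (0.69) by 0.91 (SE 0.25, FDR 0.00573; 20.4%). The change of miR-221-3p in PDGFR-β+ cells (1.00) exceeded that in ECs (0.19) and PT cells (-0.08) by 0.82 (FDR 0.0062) and 1.08 (FDR 0.000266), and stood 0.07 from that in Macs (0.93), with a 95% interval from -0.40 to 0.55. In Macs the changes of miR-221-3p and miR-222-3p exceeded those in PT cells by 1.00 (FDR 0.000458; 27.6% called) and 0.77 (FDR 0.0121), and those in ECs by 0.74 (FDR 0.0145; 18.2% called) and 0.70 (FDR 0.0358). The loci as a whole also differed in these comparisons. Their median difference was -0.55 for ECs minus PDGFR-β+ cells and -0.32 for Macs minus PDGFR-β+ cells. It was -0.27 for ECs minus Macs, -0.17 for PT cells minus PDGFR-β+ cells and -0.06 for Macs minus PT cells. For R-UUO against UUO-7 1 of 24 differences was called: miR-221-3p went down in Macs (-0.52) and stood at 0.39 in PDGFR-β+ cells, a difference of -0.91 (SE 0.24, FDR 0.0252; 1.49% of loci called, against 0.298%, 0.298%, 0.447%, 0.894% and 1.94% for the other pairs of cell types). This call was lost in 5 of 9 alternatives, with library size alone (FDR 0.0693), without the filter on low counts (0.233) and without replicate number 2 (0.151), 4 (0.14) or 5 (0.268). Over both comparisons together 11 differences were called. That number ranged from 6 to 16 when the libraries of 1 replicate number were left out. It was 16 without number 1, 7 without number 2, 10 without number 3 and 6 without number 4 or 5. It was 5, all for UUO-7 against sham, without the filter on low counts. The 5 that passed without that filter were the 3 for miR-222-3p in PDGFR-β+ cells, miR-221-3p in PT against PDGFR-β+ cells and miR-221-5p in ECs against PDGFR-β+ cells. Of those 5, the call of miR-222-3p between Macs and PDGFR-β+ cells was lost without number 2 (FDR 0.243), 4 (0.182) or 5 (0.0636), and that of miR-221-5p without number 2 (0.108), 3 (0.144) or 4 (0.063). Among the rest, miR-221-3p between ECs and PDGFR-β+ cells was lost without number 2 (0.0976), 4 (0.0939) or 5 (0.0701). Between ECs and Macs miR-222-3p was lost without number 1 (0.0737), 4 (0.0518) or 5 (0.0726) and miR-221-3p without number 5 (0.0518).

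Across cell types, PT cells held the highest levels of the 3p arms in sham kidneys. On CPM scaled over all 63 libraries, which is the scale for every level between cell types, miR-222-3p averaged 2369 ± 229 (SD, n = 4) in PT cells, 1089 ± 147 in Macs, 662 ± 63.2 in ECs and 386 ± 101 in PDGFR-β+ cells. Each step in that order passed the test in sham, with log2 differences of 1.12 between PT cells and Macs (FDR 1.6e-07; 52.2% of loci called), 0.72 between Macs and ECs (FDR 0.000316; 56.5%) and 0.78 between ECs and PDGFR-β+ cells (FDR 0.000256; 38.7%). miR-221-3p had the same order, at 588 ± 41.2, 288 ± 41.4, 199 ± 27.8 and 111 ± 34.4 CPM, with the step between Macs and ECs under the fold (log2 0.53, FDR 0.00359).

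Injury changed the order. At UUO-2 Macs and PT cells were at 3150 ± 607 and 2499 ± 257 CPM of miR-222-3p and were not called apart (log2 0.33, 95% interval -0.01 to 0.68, FDR 0.0958; 51.7% of loci called). Macs were called higher in 5 of 11 alternatives, with DESeq2 (0.61, FDR 0.000605), RLE factors (0.61, FDR 0.00139) and library size alone (0.99, FDR 0.000111), and without replicate number 2 (0.61) or 3 (0.63). At UUO-7 PDGFR-β+ cells were at 1169 ± 57.4 CPM (n = 3), above ECs at 657 ± 111 CPM (log2 0.83, FDR 0.0002, 39.9% called). They were below Macs at 1754 ± 263 CPM by 1.50-fold (FDR 0.00622, 56.9% called). That call against Macs ended with the mouse as a block (log2 0.50) and without the filter on low counts (0.58, FDR 0.0707). In R-UUO PDGFR-β+ cells (1322 ± 332 CPM) and Macs (1445 ± 217 CPM) differed by 0.13 (95% interval -0.22 to 0.47, FDR 0.547; 52% called), a closeness that rests on the scaling, since with library size alone Macs were at 2114 and PDGFR-β+ cells at 1080 CPM (log2 0.97, FDR 0.00015). Both were above ECs (628 ± 140 CPM), by 1.08 (FDR 8.29e-07; 30.4% called) and 1.20 (FDR 3.85e-08; 52.2% called). miR-221-3p followed: ECs and PDGFR-β+ cells were 227 ± 25.5 and 223 ± 31.9 CPM at UUO-7 (log2 0.02, 95% interval -0.33 to 0.37) and 177 ± 30.4 and 293 ± 59.9 CPM in R-UUO (log2 0.73, FDR 0.000229). That R-UUO difference fell under the fold in 4 of 11 alternatives, with DESeq2 (ECs minus PDGFR-β+ cells, -0.50), RLE factors (-0.49) and without replicate number 2 (-0.58) or 5 (-0.52).

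Averaged over conditions, 16 of 24 tests between cell types were called, with 40.2% of loci called between ECs and PDGFR-β+ cells, 62.3% between Macs and PT cells, 63.2% between PT and PDGFR-β+ cells, 64.7% between ECs and Macs, 68.6% between ECs and PT cells and 68.7% between Macs and PDGFR-β+ cells. The mean miR-222-3p level was 2355 CPM in PT cells, 1859 in Macs, 828 in PDGFR-β+ cells and 704 in ECs, and that of miR-221-3p 602, 462, 187 and 214 CPM. The 5p arms were 38.5, 43.8, 25.9 and 19.1 CPM for miR-221-5p and 20.9, 18.3, 9.90 and 7.97 CPM for miR-222-5p in the same cell types. All 16 calls separated PT cells or Macs from ECs or PDGFR-β+ cells, and the 8 tests within those pairs were not called. Macs and PT cells differed by 0.45 in both 3p arms with FDRs of 2.23e-06 and 5.36e-06 but under the fold, and their order rests on the scaling. TMM factors were 1.37 to 2.01 in Macs and 0.471 to 0.769 in ECs. With library size alone the Macs averaged 3242 CPM of miR-222-3p and the PT cells 2796 CPM.

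**Figure D3:**
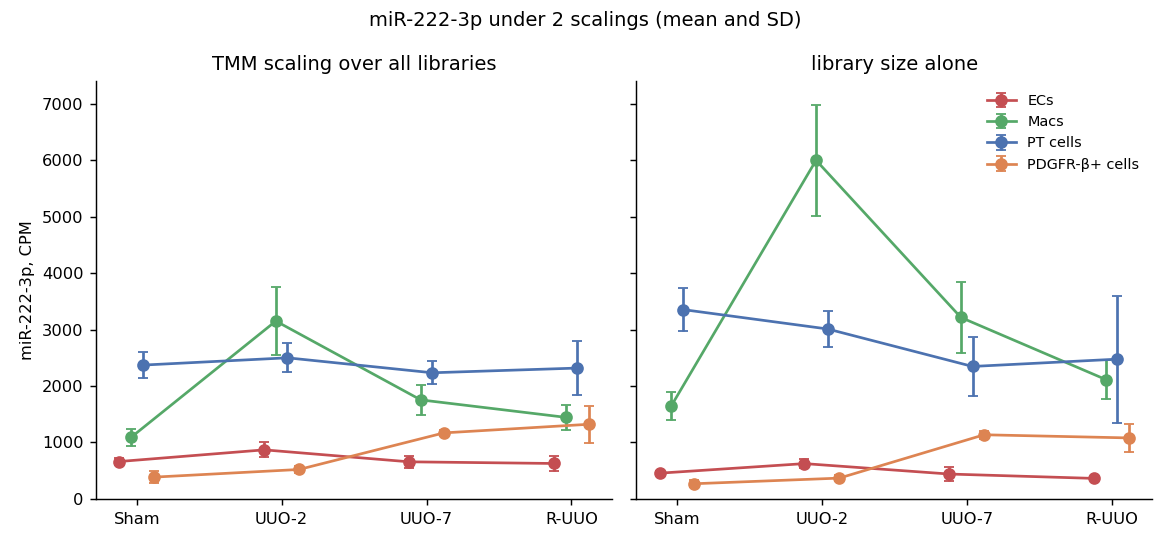
Mean and SD of miR-222-3p by condition and cell type, in CPM, with TMM scaling over all libraries (left) and with library size alone (right); n = 4 per point, 3 for PDGFR-β+ cells at UUO-7. The rise in PDGFR-β+ cells and the peak in Macs appear on both scales, while Macs are below PT cells at UUO-7 on the left (1754 against 2234 CPM) and above them on the right (3213 against 2346 CPM).

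Ratios within a library do not depend on its scaling. The miR-222-3p count was 4.21 times that of miR-221-3p in PDGFR-β+ cells, 3.91 times in PT cells, 3.88 times in Macs and 3.28 times in ECs (geometric means). The ratio was lower in ECs than in the other cell types of the same mouse: in 14 of 16 mice against Macs, 15 of 16 against PT cells and 14 of 15 against PDGFR-β+ cells, each with an adjusted p of 0.00412 (exact two-sided paired permutation test, adjusted over 18 tests). The other 3 pairs of cell types did not pass. Of those 18 tests, which also cover the arm ratios, 8 passed at an adjusted 0.05. The rest of the 8 were 3p over 5p ratios, as log2 differences with adjusted p of the same test. For miR-221 they were PT minus PDGFR-β+ cells (1.05, 0.0022), Macs minus PT cells (-0.77, 0.00791) and ECs minus PDGFR-β+ cells (0.47, 0.0494). For miR-222 they were ECs minus PT cells (-0.35, 0.0115) and PT minus PDGFR-β+ cells (0.42, 0.0121).

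Over conditions the group means of the same ratio differed in Macs, ECs and PDGFR-β+ cells, but no adjusted test passed. In Macs it was 4.96 at UUO-2 and 3.18 at UUO-7, with 3.78 in sham and 3.79 in R-UUO. The UUO-2 and UUO-7 libraries of Macs did not overlap (log2 difference -0.64). In ECs it was 2.88 at UUO-7, against 3.33 in sham (log2 difference -0.21) and 3.41 at UUO-2 (-0.24). The highest UUO-7 library of ECs, at a log2 ratio of 1.670, lay just under the lowest of sham (1.671) and of UUO-2 (1.673). In PDGFR-β+ cells it was 3.49 in sham and 5.26 at UUO-7, again without overlap (log2 difference 0.59), at the smallest p that 3 against 4 libraries allow (0.0571, exact, two-sided). The exact permutation test of 4 against 4 libraries cannot go below p = 0.0286, which was reached in 10 of 60 tests over 3 ratios, 4 cell types and 5 comparisons, and 0 of 60 passed once adjusted (smallest adjusted p = 0.171).

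The ratio of the miR-221 arms was lowest after reversal in ECs, Macs and PDGFR-β+ cells, though no adjusted permutation test passed. The 3p arm had 13.5, 17.8 and 13.3 times the counts of the 5p arm in sham, UUO-2 and UUO-7 ECs and 6.69 times in R-UUO. In PDGFR-β+ cells the ratios were 13.4, 8.35, 7.74 and 5.75 in the same order of conditions. They were 11.6, 12.4, 14.1 and 6.40 for Macs and 28.0, 17.6, 18.3 and 12.2 for PT cells. R-UUO thus had the lowest mean ratio in each of the 4 cell types, but in PT cells this rests on R-UUO library 1, without which the log2 difference was -0.02 from UUO-7 and -0.63 from sham. All 4 R-UUO libraries lay below all UUO-7 libraries in ECs (log2 difference -0.99) and Macs (-1.14), and below all sham libraries in Macs (-0.86) and PDGFR-β+ cells (-1.22), each at p = 0.0286 (exact, two-sided) and an adjusted p of 0.171. In limma over the 179 hairpins with both arms tested, chosen after seeing the data, 1 of the miR-221 comparisons passed, R-UUO against sham in PT cells (-1.20, SE 0.40, FDR 0.0435; 11.7% of hairpins called). The lowest log2 ratio in PT cells, 1.91, was that of R-UUO library 1, against 3.76 to 4.63 in the other R-UUO libraries. The values for R-UUO against sham were -1.22 in PDGFR-β+ cells (FDR 0.076; 2.79% called), -1.01 in ECs (FDR 0.379; 0.559% called) and -0.86 in Macs (FDR 0.218; 7.82% called). Over the 179 hairpins the ratio of the more to the less abundant arm had a median change of -0.25 in Macs and -0.16 in PDGFR-β+ cells. In ECs that median was -0.07 and in PT cells 0.06. The miR-222 arm ratio, between 71.4 and 131 as group means, stood at 0.19, 0.18, -0.01 and -0.01 in PDGFR-β+ cells, ECs, Macs and PT cells for R-UUO against sham. It too moved in other comparisons. Groups did not overlap in Macs for UUO-2 against sham (0.53) and UUO-7 against UUO-2 (-0.33), nor in ECs for UUO-7 against UUO-2 (-0.46). Each had p = 0.0286 in the exact permutation test and an adjusted p of 0.171. The R-UUO samples of the 4 cell types came from the same 4 mice, so the cell types are not independent in this respect.

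**Figure D4:**
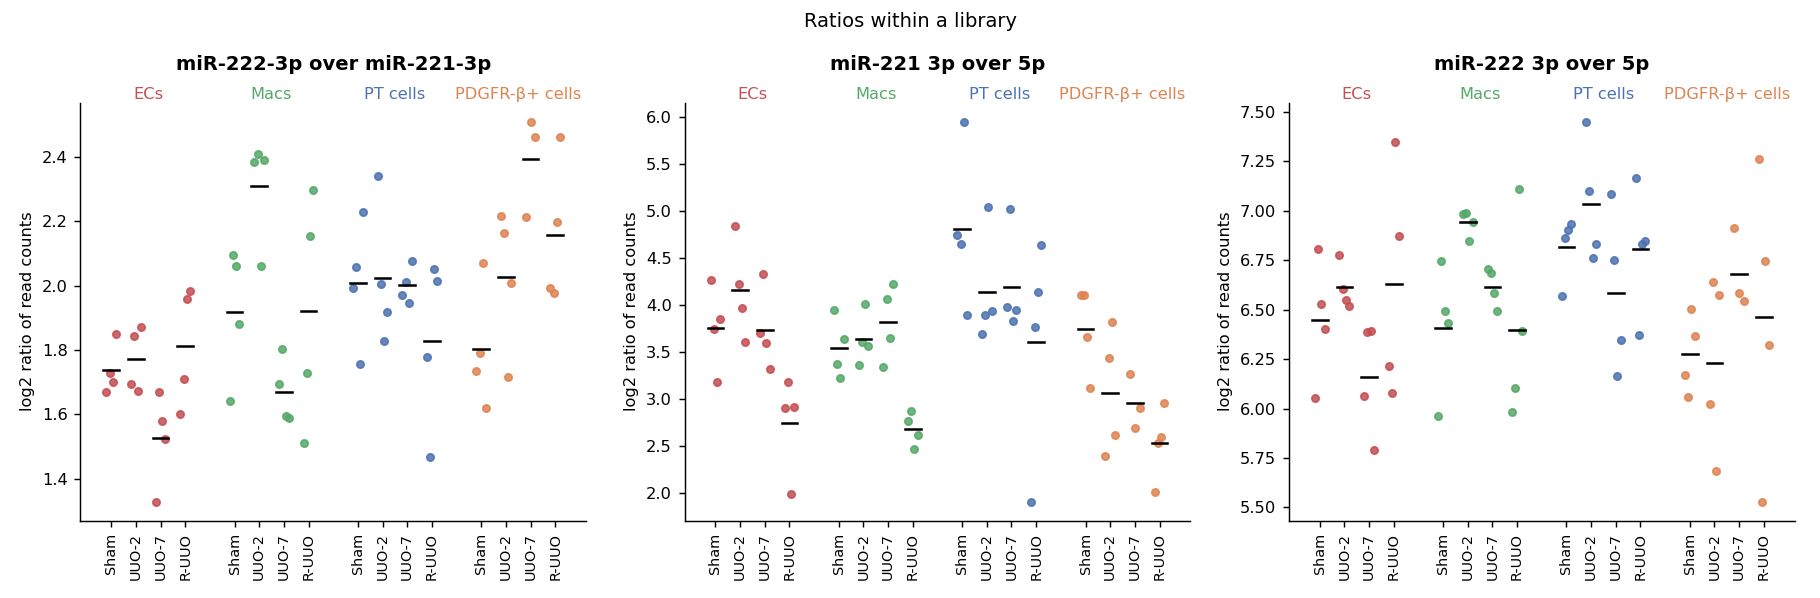
Log2 ratios of read counts within each library by cell type and condition; points are libraries and bars are means. In the middle panel the R-UUO means of the miR-221 3p over 5p ratio are the lowest of each cell type, at 3.61 for PT cells (with 1 library at 1.91), 2.74 for ECs, 2.68 for Macs and 2.52 for PDGFR-β+ cells.

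The 3p arms followed each other. Over the 16 group means of log2 CPM miR-221-3p and miR-222-3p had a Pearson r of 0.97, and within cell types r was 0.95 over the 15 PDGFR-β+ libraries, 0.89 in Macs, 0.87 in ECs and 0.39 in PT cells (16 libraries each), where both varied least. These r share libraries and scaling factors and are descriptions. miR-221-5p followed its own 3p arm less closely, with r of 0.72 over group means, 0.88 in PDGFR-β+ cells, 0.59 in Macs, 0.02 in ECs and -0.13 in PT cells. The loci whose group means were most like those of miR-221-3p were miR-8094 (r 0.92), miR-1981-3p (0.92), miR-1981-5p (0.91), miR-8114 (0.89) and miR-2137 (0.89), and for miR-222-3p they were miR-2137 (0.92), miR-98-5p (0.91), miR-1981-3p (0.88), miR-1948-3p (0.86) and miR-1981-5p (0.86). By rank correlation 1 and 3 of these 5 remained among the nearest 5.

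Other miRNAs known from vascular smooth muscle went both ways in PDGFR-β+ cells. Of 10 tested loci of 8 such miRNAs, 3 rose and 5 fell at UUO-7 (48.2% of all loci called) and 3 rose and 5 fell in R-UUO against sham (41.7%), with medians of -0.70 and -0.32 against 0.50 and 0.40 over all loci. miR-21a-5p rose by 4.97 (SE 0.25), miR-31-5p by 1.59 (SE 0.41) and miR-146a-5p by 1.35 (SE 0.21) at UUO-7, while miR-143-3p fell by 1.48 (SE 0.24) and miR-145a-5p, its partner in the contractile programme, by 1.28 (SE 0.35). Of 8 loci of 7 endothelial miRNAs, 1 rose (miR-155-5p) and 4 fell there at UUO-7. In ECs, where the pair was not called, 1 of the 8 endothelial loci rose at UUO-7 and 0 fell, and 3 of the 10 smooth muscle loci rose and 1 fell (11.5% of all loci called). In Macs at UUO-2 1 smooth muscle locus rose (miR-21a-5p, 1.06, SE 0.18) and 3 fell, and 0 of 8 endothelial loci were called (27.6% of all loci). In PT cells at UUO-7, where the 3p arms were not called, 7 of 10 smooth muscle loci rose and 0 fell, and 5 of 8 endothelial loci rose and 1 fell (43% of all loci called). These counts take loci of the same mature miRNA separately. Both miR-24-3p loci were among the rises in PT cells and the falls in PDGFR-β+ cells, and both miR-26a-5p loci among the falls in Macs. The endothelial miR-92a-3p went both ways in PT cells, at 1.04 for its chromosome 14 locus and -1.26 for its X chromosome locus. How reads were shared between such loci was not tested.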

How the data were processed

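Small RNA was sequenced by the authors from 4 sorted cell types of 16 mice. Adapters were removed by the authors (Trim Galore 0.4.1, cutadapt 1.1). ShortStack then placed the reads on the mouse genome, build GRCm38, with miRBase annotation, and the deposited values are raw counts for each mature miRNA locus. Strand, multi-mapping mode and molecular identifiers are not given in the sources used here. 1 PDGFR-β+ UUO-7 library that the authors excluded is not analysed here, nor is a column of totals over further libraries. Samples were grouped by their labels. Replicates are separate mice.

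Within each cell type, loci passing filterByExpr (469 in ECs, 457 in Macs, 330 in PT cells, 477 in PDGFR-β+ cells) were fitted with edgeR 4.0.16 (R 4.3.3; TMM, glmQLFit, glmQLFTest, Benjamini-Hochberg). Cell types and differences of changes were fitted over 63 libraries (671 loci). Calls needed FDR under 0.05 and a fold above 1.5, FDR alone for differences of changes. Levels are CPM. Log2 levels for correlations used a prior count of 2, and ratios within libraries a pseudocount of 0.5, with exact permutation tests (scipy 1.17.1). Alternatives were DESeq2 1.42.0, RLE or no scaling factors, no filter, 2-group fits, a block, FDR alone, and leaving out each replicate. The block was the replicate number in fits within a cell type and the mouse in fits over all libraries. limma 3.58.1 on arm ratios was added after seeing the data. The code was tested on simulated data. Totals of 616565 to 10819385 counts put the 3-count floor at 0.277 to 4.87 CPM, counting error only.

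Cell types of 1 mouse are paired by the labels (median r of deviations 0.0485 over 93 pairs). Named loci were the 4 arms, loci sharing their seeds, the 5 most alike in pattern to each 3p arm and members of the vascular lists. The members and lists were chosen with earlier results of these data known. Of the 4 arms, 3 had a mature sequence in the RefSeq table.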

Additional observations from a re-analysis of the deposited data

Results flagged for a closer look

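In 2 of 60 groups of 4 libraries 1 library stood apart from the other 3, its gap divided by the group's range being above 0.829; chance alone gives about 1 in 20. They were miR-222-3p in sham PDGFR-β+ cells (0.920), where library 1 had 389 CPM and the others 265 to 275 CPM, and miR-221-5p in PT cells at UUO-7 (0.874), where library 3, on 37 counts, had 20.2 CPM and the others 37.8 to 40.3 CPM.

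The change from sham to UUO-7 differed between cell types by the interaction test of edgeR in 10 comparisons, given as log2 differences, first cell type minus second. They were ECs minus Macs for miR-221-3p (-0.742) and miR-222-3p (-0.699), ECs minus PDGFR-β+ cells for miR-221-3p (-0.816), miR-221-5p (-1.60) and miR-222-3p (-1.61), Macs minus PT cells for miR-221-3p (1.00) and miR-222-3p (0.772), Macs minus PDGFR-β+ cells for miR-222-3p (-0.911), and PT cells minus PDGFR-β+ cells for miR-221-3p (-1.08) and miR-222-3p (-1.68). The change from UUO-7 to R-UUO differed for miR-221-3p between Macs and PDGFR-β+ cells (-0.915). Over all loci the median difference in the change to UUO-7 ran from -0.549 (ECs minus PDGFR-β+ cells) to -0.0558 (Macs minus PT cells). For the change from UUO-7 to R-UUO it was 0.157 for Macs minus PDGFR-β+ cells.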

How the results depend on the processing

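The UUO-2 rise of all 4 arms in Macs, their R-UUO rise in PDGFR-β+ cells, and the UUO-7 rise of miR-221-3p in Macs and of miR-222-3p, miR-221-3p and miR-221-5p in PDGFR-β+ cells kept their calls in all alternatives run. Of 20 tests per cell type, calls in ECs went from 0 to 1 with DESeq2 and to 1 without the filter on low counts, and those in PT cells from 1 to 0 with library size alone and to 0 with only the compared groups. Calls in Macs ranged from 10 to 14 and in PDGFR-β+ cells from 8 to 11. Leaving out 1 library gave 9 to 10 calls in PDGFR-β+ cells, 8 to 11 in Macs, and 0 to 1 in both ECs and PT cells. Leaving out 1 replicate number gave 16 in each case between cell types, 6 to 16 differences of changes, and 4 to 8 ratio calls between cell types (4 without number 2, 7 without number 5); leaving out 1 library gave 0 ratio calls between conditions. Differences of changes numbered 5 without the filter on low counts and 16 with RLE factors, against 11. With library size alone miR-221-3p at UUO-7 was 0.78 higher in Macs than in PT cells, the reverse of -0.02. Of the 5 loci most alike, Spearman kept 1 for miR-221-3p and 3 for miR-222-3p, correlation over all libraries 3 for miR-222-3p, and library size alone 2. limma over hairpins called 1 arm ratio between conditions. The causes were not tested.

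With the replicate number as a block within a cell type, 11 tests were called in Macs, 1 in PT cells, 0 in ECs and 8 in PDGFR-β+ cells. With the mouse as a block over all libraries, 16 tests between cell types and 12 differences of changes were called. Without the pairing by mouse the ratio calls were 7 in place of 8. Across conditions the number names different mice (median r of deviations -0.0175 over 74 pairs, 8 of them over 0.1). The block on replicate number ended miR-222-5p at UUO-7 (FDR 0.164) and miR-221-3p from UUO-2 to UUO-7 (FDR 0.0517) in PDGFR-β+ cells. Depth limits the 5p arms most, with 8 counts in the lowest library.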
